A study of Caenorhabditis elegans with 6 samples.

Results

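The 10 genes described here encode enzymes that set the direction of carbohydrate metabolism in the nematode Caenorhabditis elegans: pck-1, pck-2, fbp-1, icl-1, mdh-2, tps-1, tps-2, gpd-2, gpd-3 and pyk-1. They were chosen by their WormBase symbols, without use of their values, and all 10 were found among the 46911 gene identifiers counted. RNA-seq reads per gene were compared between 2 genotypes of whole animals labelled L4, the last larval stage. One group was mutant for nmr-2, which encodes a subunit of the NMDA-type glutamate receptor, and carried the deletion allele ok3324; the other, called WT here, was N2, the standard wild-type strain. There were 3 libraries of each. Both were raised at 20 °C on the OP50 strain of Escherichia coli, with no drug or other agent named in the labels. The comparison asks how loss of the receptor subunit changes transcript levels.

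Glycolysis breaks glucose down to pyruvate, and gluconeogenesis runs the other way through its own enzymes at the irreversible steps, among them phosphoenolpyruvate carboxykinase and fructose bisphosphatase. Nematodes, unlike mammals, also have the glyoxylate cycle, which lets carbon from stored fat enter gluconeogenesis. In C. elegans the product can be stored as trehalose, a disaccharide known for protecting animals from drying and other stress. Dauer larvae and long-lived insulin receptor mutants are known for a shift of metabolism towards these routes.

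Library totals ran from 21234748 to 27893186 counts, and the 10 genes together took 0.308% to 0.324% of the counts in the mutant libraries and 0.308% to 0.356% in the WT libraries. The deleted gene gave no check of the labels, with 13 counts in all in the mutant and 19 in WT (ratio 0.618, exact 95% interval 0.281 to 1.32, counting error only). Scaling factors stood apart in replicate 2 of each genotype, at 1.196 in the mutant and 0.838 in WT, and lay between 0.986 and 1.01 in the others. Of 30 tissue markers, 5 each for intestine, body wall muscle, epidermis, germline, neurons and sperm, none was at 0 in all libraries. The summed germline markers were 2159 to 2745 CPM (counts scaled to a common library size, per 1000000) in the mutant libraries and 2766 to 3153 CPM in the WT libraries. These ranges do not overlap, but the gap is narrow and rests on the scaling factors given above. Sums on library totals alone were not compared. All 5 germline markers were lower in the mutant (median log2 fold change -0.23, and -0.083 without both libraries numbered 2). Lower values were common at their levels. Of the most abundant 10% of tested genes, which include pgl-1, glh-1 and gld-1, 83.9% were below 0. Between 58.8 and 117 CPM on average, where htp-3 and rec-8 lie, 66.7% were. The sums of the other 5 tissues overlapped, but each rests mostly on its most abundant markers. By single markers, 4 of 4 tested for sperm were higher in the mutant (median 1.02; spe-11 at 0.86, edgeR adjusted p = 0.052), as were 4 of 5 for neurons (median 0.25) and 4 of 5 for body wall muscle (median 0.15), against 1 of 5 for intestine and 2 of 4 for epidermis. Of all tested genes 53.4% were above 0. Among the least abundant 40%, which include spe-9, spe-42, rab-3, unc-104 and ric-4, the share was 69.1%, so higher values were common there. The 4 higher muscle markers were instead in the most abundant 10%, where most genes were below 0. None of the markers passed the test in edgeR or limma-voom, and 1 sperm marker passed in DESeq2. The part of the markers' tissues in the results that follow was not tested.

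None of the 10 enzyme genes passed the test between genotypes. With edgeR's quasi-likelihood test and an adjusted p under 0.05, 0 of the 10 passed, where 2.16% of all 13138 tested genes did (1.79% rose and 0.373% fell). DESeq2 called 0 of the 10 against 3.12% of all genes (0.799% fell), and limma-voom 0 of the 10 against 1.95%. At an unadjusted p under 0.05 there were 2 of the 10, against 17.2% of all tested genes; these were gpd-2 and pck-1, both lower in the mutant, a direction that 6.92% of all genes took at this p. The groups of libraries did not overlap for 2 of the 10, gpd-2 and fbp-1, against 24.4% of all tested genes, a share near this background. Both were lower in the mutant, and 11% of all tested genes were lower without overlap. gpd-2 and fbp-1 were in the most abundant 10% of genes, where 83.9% were below 0, and pck-1 in the next 10%, where 66.7% were. The downward shares over all genes are therefore not matched to the levels of these genes. The 95% intervals of all 10 log2 fold changes, not adjusted for the number of genes, lay between -0.80 and 0.73, so each excluded a 2-fold difference in either direction. In whole animals, fewer cells of a type and less RNA per cell cannot be told apart.

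**Figure D1:**
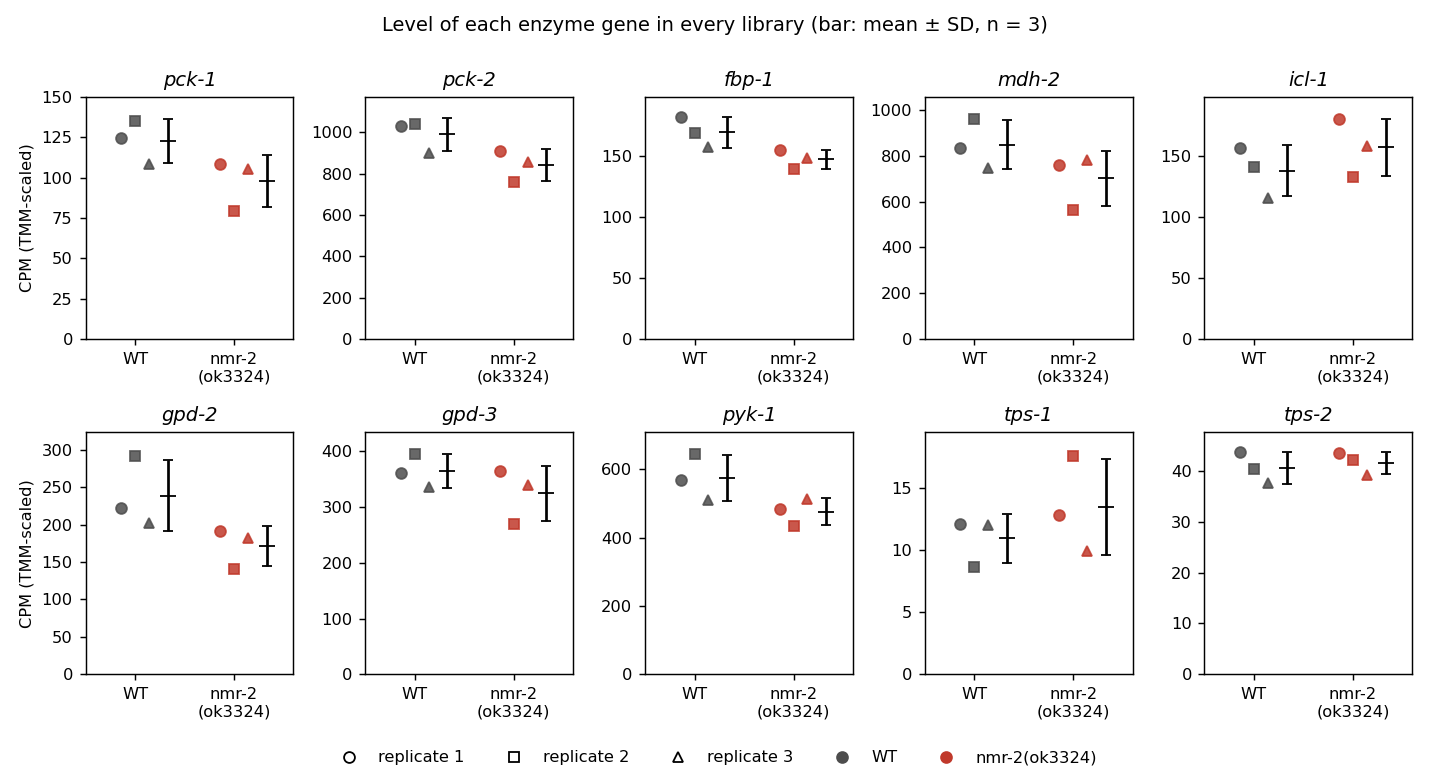
Level of each of the 10 enzyme genes in every library, in CPM scaled by TMM factors (y axis from 0), for WT and nmr-2(ok3324). Points are libraries, with the replicate number as the symbol, and bars are the mean ± SD (n = 3). Of the 10 genes, only gpd-2 and fbp-1 have all mutant points below all WT points.

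Levels per length were set side by side to order the genes. In WT the mitochondrial malate dehydrogenase gene mdh-2 was highest, at 646 ± 81.5 CPM per kb of merged exons (SD, n = 3), followed by gpd-3 at 315 ± 26.4 and pck-2 at 298 ± 24.1. Libraries of gpd-3 and pck-2 overlapped, so the order of these neighbours is not settled. Below them came gpd-2 (207 ± 41.1 CPM per kb), pyk-1 (146 ± 17.1), fbp-1 (82.7 ± 6.03), pck-1 (59.6 ± 6.52) and icl-1 (44.0 ± 6.66). The trehalose phosphate synthase genes were lowest, tps-2 at 10.6 ± 0.806 and tps-1 at 2.51 ± 0.451 CPM per kb. In WT every other pair of neighbours in this order was separated in all libraries. That separation does not cover how reads matching both gpd-2 and gpd-3 were counted, or the merging of exons over several transcripts of a gene. In the mutant the ends of the order were the same, but icl-1 at 50.1 ± 7.56 CPM per kb lay above pck-1 at 47.5 ± 7.88 with overlapping libraries. Mutant libraries also overlapped between pyk-1 (121 ± 9.99) and gpd-2 (149 ± 23.4) and between pck-2 (253 ± 22.9) and gpd-3 (281 ± 42.7).

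**Figure D2:**
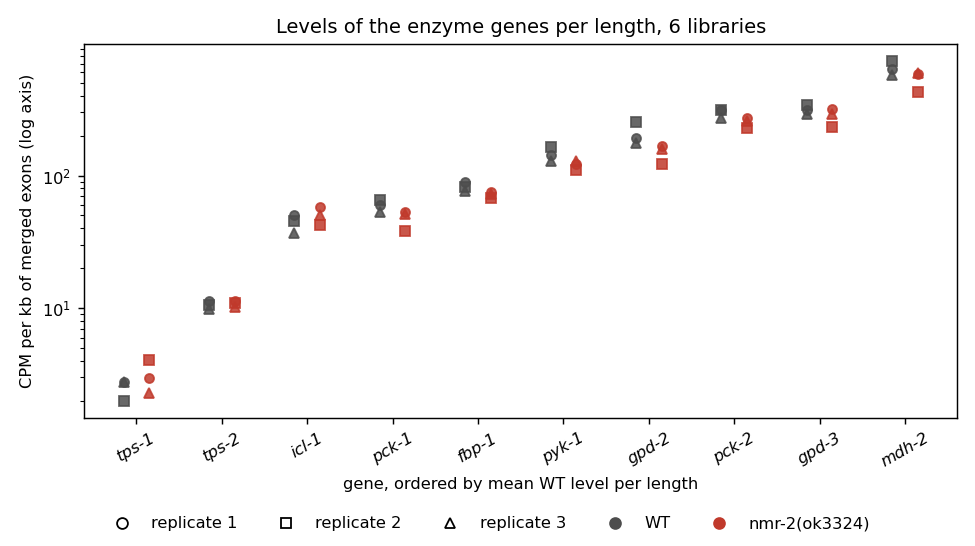
Level per length of the 10 enzyme genes in CPM per kb of merged exons, on a log axis, ordered by the WT mean. Each point is 1 library, grey for WT and red for nmr-2(ok3324). The levels span from 2.51 CPM per kb (tps-1, WT mean) to 646 CPM per kb (mdh-2, WT mean).

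The genes of gluconeogenesis had lower mean levels in the mutant, within the limits of the test. pck-1 (WBGene00021043, chromosome III, 62888 to 66260 in the WBcel235 build, as are all positions here) and pck-2 (WBGene00011232, chromosome I, 7866136 to 7872100) encode phosphoenolpyruvate carboxykinase, which turns oxaloacetate into phosphoenolpyruvate at the entry of the pathway. pck-1 was at 125, 135 and 109 CPM in WT replicates 1, 2 and 3 and at 109, 79.2 and 106 CPM in mutant replicates 1, 2 and 3. The highest mutant library and the lowest WT library were at the same level to 3 digits, and mutant replicate 2 lay well below the rest. Its log2 fold change was -0.33 (SE 0.13, 95% interval -0.61 to -0.05, edgeR adjusted p = 0.23). pck-2, the more abundant of the pair, was at 1031, 1040 and 897 CPM in WT and at 907, 758 and 857 CPM in the mutant. The groups overlapped through WT replicate 3 and mutant replicate 1 (log2 fold change -0.23, SE 0.15, 95% interval -0.56 to 0.09, edgeR adjusted p = 0.42).

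fbp-1 (WBGene00001404, chromosome I, 2581015 to 2586124) encodes fructose bisphosphatase, the step opposite to phosphofructokinase. It was at 182, 169 and 157 CPM in WT and at 155, 139 and 149 CPM in the mutant. The 3 mutant libraries lay below the 3 WT libraries by a narrow margin, with a log2 fold change of -0.20 (SE 0.11, 95% interval -0.43 to 0.03, edgeR adjusted p = 0.34). mdh-2 (WBGene00003162, chromosome III, 6606544 to 6608106), whose enzyme links malate and oxaloacetate in mitochondria, was at 834, 959 and 747 CPM in WT and at 761, 563 and 782 CPM in the mutant. Mutant replicate 2 stood below the other 5 libraries, and the groups overlapped (log2 fold change -0.27, SE 0.17, 95% interval -0.63 to 0.08, edgeR adjusted p = 0.40).

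icl-1 (WBGene00001564, chromosome V, 724332 to 728004) encodes the joined isocitrate lyase and malate synthase of the glyoxylate cycle, and its mean was higher in the mutant. It was at 157, 141 and 116 CPM in WT and at 180, 133 and 158 CPM in the mutant. The groups overlapped widely, since mutant replicate 2 lay below 2 of the WT libraries. The log2 fold change was 0.19 (SE 0.14, 95% interval -0.10 to 0.48, edgeR adjusted p = 0.47). icl-1 is on the same chromosome as nmr-2, 14.28 Mb away; the other 9 genes are on other chromosomes.

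The glycolytic gene gpd-2 had the smallest p of the 10. gpd-2 (WBGene00001684, chromosome X, 3113443 to 3114689) and gpd-3 (WBGene00001685, chromosome X, 3112091 to 3113341) encode glyceraldehyde phosphate dehydrogenase, which works in both directions of the pathway. They lie 101 bp apart on the minus strand behind mai-1, and the group is known as an operon in which the downstream genes are trans-spliced. gpd-2 was at 222, 292 and 202 CPM in WT and at 191, 141 and 182 CPM in the mutant. All mutant libraries lay below all WT libraries, with WT replicate 2 highest and mutant replicate 2 lowest. The log2 fold change was -0.48 (SE 0.15, 95% interval -0.80 to -0.16, edgeR adjusted p = 0.14), a ratio of 0.718. gpd-3 was at 361, 396 and 335 CPM in WT and at 365, 270 and 339 CPM in the mutant. Here the groups overlapped, with only mutant replicate 2 below the WT range (log2 fold change -0.16, SE 0.14, 95% interval -0.46 to 0.13, edgeR adjusted p = 0.54). The first gene of the operon, mai-1, named outside the rule for named genes, was much rarer, with mean levels of 5.94 ± 1.31 CPM (WT) and 5.36 ± 1.24 CPM (mutant), a log2 fold change of -0.14 (SE 0.23, edgeR adjusted p = 0.78).

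Near-identical gpd copies can share or lose reads, so gpd-2 and gpd-3 were also tested as 1 feature. Their sum averaged 602 ± 77.3 CPM (WT) and 496 ± 76.1 CPM (mutant; SD, n = 3), with overlapping groups and a log2 fold change of -0.29 (SE 0.15, 95% interval -0.61 to 0.04, edgeR adjusted p = 0.34). The last glycolytic enzyme, pyruvate kinase, is encoded by pyk-1 (WBGene00009126, chromosome I, 9168432 to 9177488). It was at 568, 645 and 511 CPM in WT and at 483, 434 and 511 CPM in the mutant. WT replicate 3 and mutant replicate 3 met at the same level, and the other mutant libraries lay below all WT libraries (log2 fold change -0.27, SE 0.14, 95% interval -0.57 to 0.03, edgeR adjusted p = 0.33).

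The trehalose phosphate synthase genes, the least abundant of the 10, did not pass the test. tps-1 (WBGene00006602, chromosome X, 17467121 to 17474534) was at 12.1, 8.68 and 12.0 CPM in WT and at 12.9, 17.6 and 9.98 CPM in the mutant. The libraries numbered 2 were the extremes, WT replicate 2 the lowest and mutant replicate 2 the highest, and the groups overlapped. Its log2 fold change was 0.30 (SE 0.20, 95% interval -0.13 to 0.73, edgeR adjusted p = 0.43), the widest interval of the 10. tps-2 (WBGene00006603, chromosome II, 14600902 to 14610554) was at 43.8, 40.4 and 37.6 CPM in WT and at 43.49, 42.02 and 39.10 CPM in the mutant. These ranges nearly coincided (log2 fold change 0.034, SE 0.11, 95% interval -0.20 to 0.27, edgeR adjusted p = 0.90).

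**Figure D3:**
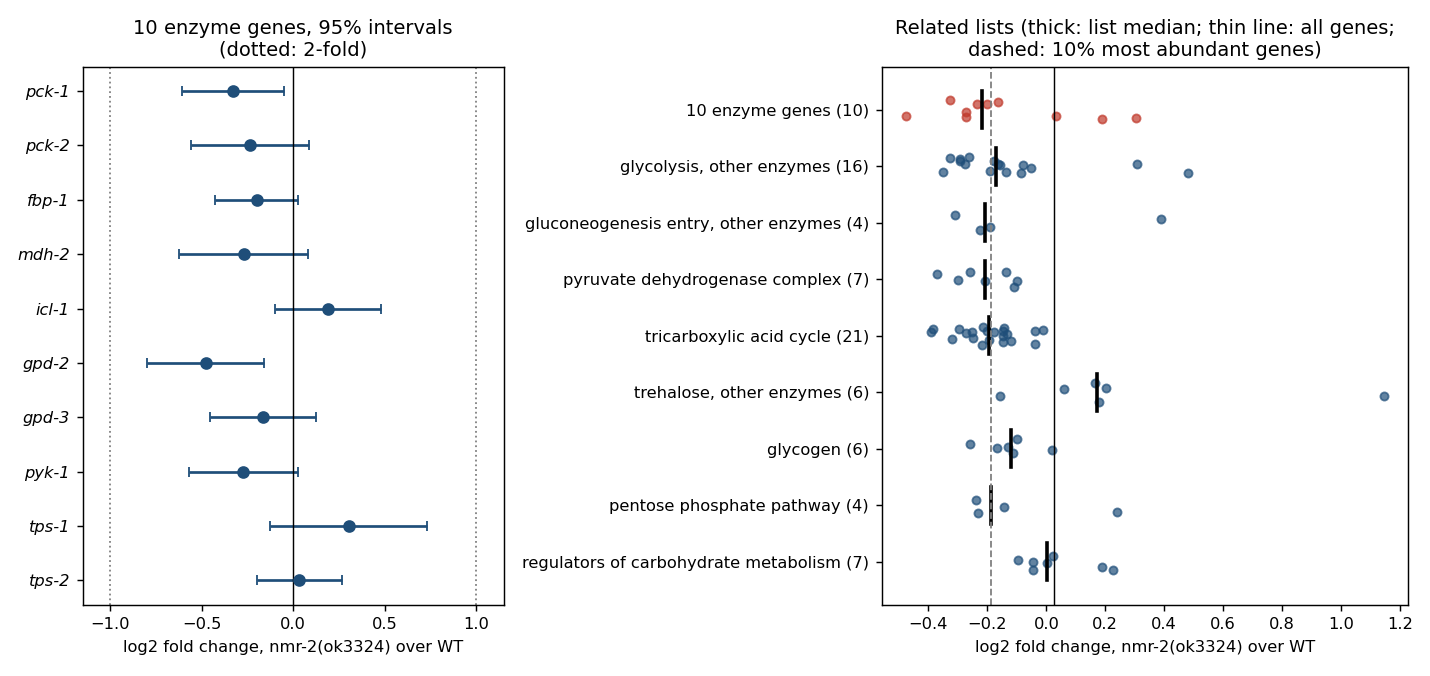
Left, log2 fold change of each enzyme gene, nmr-2(ok3324) over WT, with its 95% interval from edgeR; dotted lines mark 2-fold. Right, log2 fold changes of the genes in each related list, with the number tested in brackets, the list median as a thick bar, the median of all genes as a thin line (0.03) and that of the 10% most abundant genes as a dashed line (-0.19). All 10 intervals lie inside the dotted lines, and the medians for glycolysis, gluconeogenesis entry, pyruvate dehydrogenase, the tricarboxylic acid cycle and the pentose phosphate pathway lie near the dashed line.

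In TMM-scaled levels, libraries numbered 2 carried much of the spread. In 6 of the 10 genes (pck-1, pck-2, mdh-2, gpd-2, gpd-3 and pyk-1) WT replicate 2 was the highest and mutant replicate 2 the lowest of the 6 libraries. This order was not particular to these genes, since gpd-4, cts-1 and fum-1 showed it too. Its share over all tested genes was not counted. The order was read from TMM-scaled CPM, and the factors of 0.838 (WT) and 1.196 (mutant) themselves raise WT replicate 2 and lower mutant replicate 2. By counts, pck-1, pck-2 and gpd-3 were lower in WT replicate 2 than in WT replicate 1, although the library total of WT replicate 2 was larger. For gpd-2 the highest count was in WT replicate 2 and the lowest in mutant replicate 2. Without both libraries numbered 2, the log2 fold change was -0.18 for gpd-2, -0.12 for pck-1, -0.13 for pck-2, -0.12 for pyk-1, -0.16 for fbp-1 and -0.036 for mdh-2. In that fit gpd-3 was at 0.018 and tps-1 at -0.075, both with the opposite sign, while icl-1 was at 0.31. Again 0 of the 10 passed, where 4.01% of all genes did, and the smallest edgeR adjusted p was 0.15 (gpd-2). With library totals in place of scaling factors, the median of all genes moved from 0.03 to 0.20. Values relative to that median follow in brackets. In this fit icl-1 was at 0.35 (0.15), tps-1 at 0.49 (0.28), gpd-2 at -0.30 (-0.50) and gpd-3 at 0.0036 (-0.20). Further values were pck-1 at -0.16 (-0.36), mdh-2 at -0.10 (-0.31), pyk-1 at -0.095 (-0.30), pck-2 at -0.064 (-0.27) and fbp-1 at -0.030 (-0.23).

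**Figure D4:**
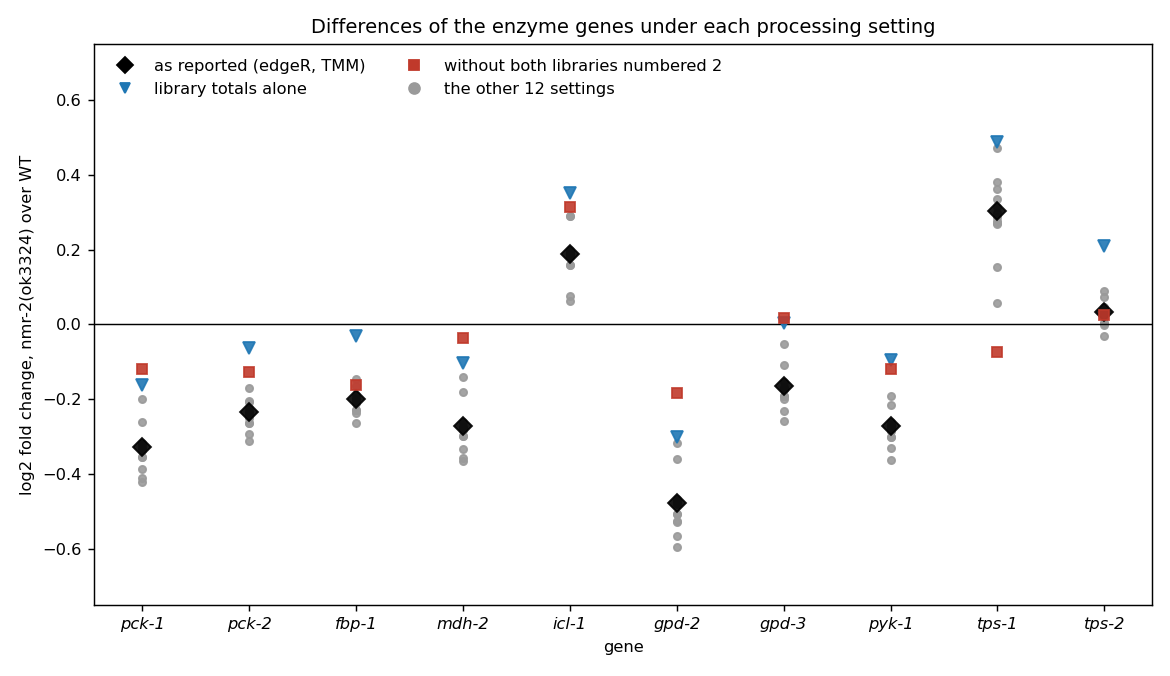
Log2 fold change of each enzyme gene, nmr-2(ok3324) over WT, under each processing setting. Black diamonds are the reported values, red squares the fit without both libraries numbered 2, blue triangles the fit with library totals alone, and grey points the other settings. gpd-2 runs from -0.60 to -0.18 and stays below 0, and tps-1 runs from -0.075 to 0.49.

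Lower values were common among abundant genes. Of the 10 enzyme genes 7 had a log2 fold change below 0, against 46.6% of all tested genes. However, 7 of the 10 belonged to the 10% of tested genes with the highest levels (above 117 CPM on average), where 83.9% were below 0 and the median log2 fold change was -0.19. Of these 7 members 6 were below 0, with a median of -0.23. The exception was icl-1, and 3.27% of the genes in this range had a higher log2 fold change than icl-1. At the other end, 0.837% of them had a lower one than gpd-2. Without both libraries numbered 2, the median of this range was -0.030. The germline markers were lower too, and most sperm, neuron and body wall muscle markers were higher. By level, the germline and most muscle markers are themselves abundant, and most sperm and neuron markers are rare. Whether tissue content has a part in the lower values was not tested.

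The share of reads within a pair of enzymes for the same reaction needs no scaling between libraries. It does depend on how reads that match both genes of a pair were counted, and the setting for such reads is not given in the sources used here. The pairs were chosen after the levels were seen, and are given as a description. gpd-2 took 38.1%, 42.4% and 37.6% of the reads of gpd-2 plus gpd-3 in WT replicates 1, 2 and 3, and 34.4%, 34.3% and 34.9% in mutant replicates 1, 2 and 3. All mutant libraries lay below all WT libraries, and no exact 95% interval of a mutant library (33.4% to 35.8% over the 3) reached those of WT (36.8% to 43.3%). The means were 39.4% ± 2.67 and 34.5% ± 0.340 (SD, n = 3), a difference of -4.86 percentage points, and 37.8% and 34.6% without both libraries numbered 2. With 3 against 3 libraries a 2-sided exact permutation test cannot go below 0.1, and these intervals cover counting error only. Of all reads of the 4 gpd genes, gpd-2 held 18.0% ± 1.02 in WT and 16.1% ± 0.455 in the mutant, gpd-3 27.7% ± 1.55 and 30.5% ± 1.29, gpd-1 33.4% ± 0.653 and 33.1% ± 1.104, and gpd-4 20.99% ± 0.186 and 20.3% ± 0.738.

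The other pairs showed smaller shifts in percentage points, though the shift of pyk-2, from a mean of 2.36% to 3.52%, was large beside its small share. gpd-4 held 38.6% ± 0.502 of the gpd-1 plus gpd-4 reads in WT and 38.1% ± 0.546 in the mutant, with overlapping libraries. pck-1 held 11.03% ± 0.417 of the pck-1 plus pck-2 reads in WT and 10.4% ± 0.807 in the mutant, with overlapping libraries. tps-1 held 21.2% ± 3.31 of its pair in WT and 24.2% ± 4.77 in the mutant, also overlapping. For malate dehydrogenase, the share of mdh-1, the cytosolic form, was 39.9% ± 0.761 in WT and 39.3% ± 1.29 in the mutant. The second pyruvate kinase gene pyk-2 held 2.41%, 2.13% and 2.55% of the pyk-1 plus pyk-2 reads in WT and 3.23%, 4.74% and 2.57% in the mutant. These groups did not overlap, but mutant replicate 3 and WT replicate 3 differed by less than their counting intervals.

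**Figure D5:**
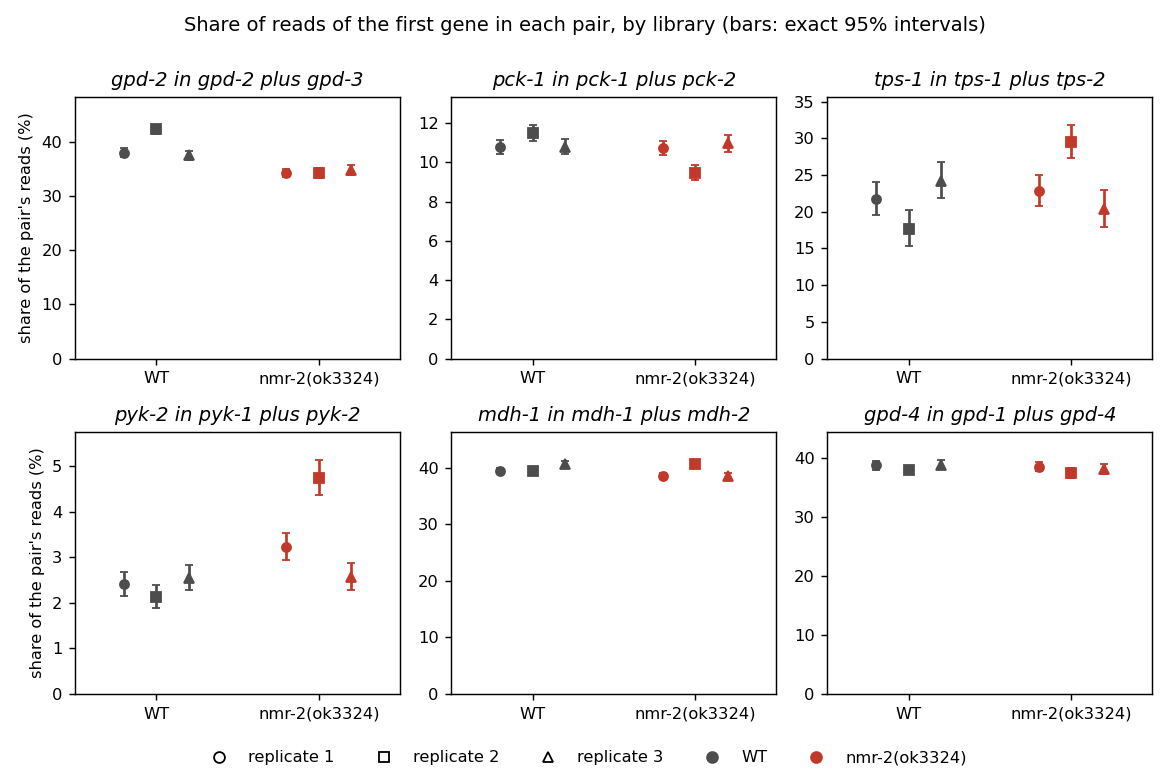
Share of reads (%) of the first gene in 6 pairs of enzymes for the same reaction, by library, for WT and nmr-2(ok3324); bars are exact 95% binomial intervals, which cover counting error only. For gpd-2 the 3 mutant libraries sit between 34.3% and 34.9%, below the WT libraries at 37.6% to 42.4%.

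The rest of carbohydrate metabolism was described through 8 lists with 71 genes, all of which were tested. None rose and none fell by edgeR, DESeq2 or limma-voom; 11 of the 71 had an unadjusted p under 0.05, against 17.2% of all tested genes, and the groups did not overlap for 20 of the 71, against 24.4%. The median log2 fold change over the 71 genes was -0.15, and -0.048 without both libraries numbered 2. From each list the gene with the smallest p is named.

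In the 16 other glycolytic genes, 9 of them among the most abundant 10% of genes, the median was -0.17 (-0.057 without both libraries numbered 2) and 14 were below 0. Here gpd-4, a further glyceraldehyde phosphate dehydrogenase gene, averaged 277 ± 37.5 CPM (WT) and 217 ± 41.1 CPM (mutant), a log2 fold change of -0.35 (SE 0.15, edgeR adjusted p = 0.24; -0.089 without those libraries). Of the 4 other genes at the entry of gluconeogenesis 3 were below 0 (median -0.21, and -0.098 without those libraries), and the exception was pck-3, another, rare carboxykinase gene, with means of 8.56 ± 1.04 CPM (WT) and 11.2 ± 1.18 CPM (mutant) and a log2 fold change of 0.39 (SE 0.17, edgeR adjusted p = 0.25; 0.24 without them). The pyruvate dehydrogenase complex, which feeds pyruvate into the tricarboxylic acid cycle, had 5 of its 7 genes in the most abundant 10%. In that range 83.9% of all genes were below 0. The complex was below 0 in 7 of 7 genes (median -0.21, and -0.10 without those libraries). Its subunit gene pdhb-1 averaged 315 ± 43.5 CPM (WT) and 243 ± 27.1 CPM (mutant), a log2 fold change of -0.37 (SE 0.13, edgeR adjusted p = 0.18; -0.16 without them). All 21 genes of the tricarboxylic acid cycle were below 0 too (median -0.19, and -0.035 without those libraries). Of the 21, 17 lay in the most abundant 10%, where 83.9% of all genes were below 0. Here fum-1, the fumarase gene, averaged 378 ± 53.8 CPM (WT) and 289 ± 56.6 CPM (mutant), a log2 fold change of -0.39 (SE 0.16, edgeR adjusted p = 0.23; -0.11 without those libraries).

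The trehalose list stood on the other side of 0, with a median of 0.17 and 5 of 6 genes above 0, against 53.4% of all tested genes. None of the 6 was among the most abundant 10%, and 2 (tre-4 and tre-5) were among the least abundant 40%, where 69.1% of all genes were above 0. The trehalase gene tre-1 averaged 76.5 ± 4.90 CPM (WT) and 88.1 ± 3.35 CPM (mutant), a log2 fold change of 0.20 (SE 0.10, edgeR adjusted p = 0.32). Without both libraries numbered 2 the median of this list was 0.044, and another trehalase gene, tre-2, passed in the opposite direction (-0.31, SE 0.09, edgeR adjusted p = 0.040). The 6 glycogen genes had a median of -0.12, which was 0.0035 without both libraries numbered 2, and the glycogen phosphorylase gene pygl-1 averaged 1256 ± 109 CPM (WT) and 1051 ± 181 CPM (mutant), a log2 fold change of -0.26 (SE 0.17, edgeR adjusted p = 0.43; -0.058 without them). In the 4 pentose phosphate genes the median was -0.19, and 0.017, on the other side of 0, without those libraries. Of these, gspd-1, encoding glucose phosphate dehydrogenase, averaged 58.7 ± 4.12 CPM (WT) and 69.3 ± 9.30 CPM (mutant), a log2 fold change of 0.24 (SE 0.12, edgeR adjusted p = 0.30; 0.10 without them). The 7 regulators had a median of 0.0016 (0.038 without them), and the insulin receptor gene daf-2 averaged 54.9 ± 1.64 CPM (WT) and 64.2 ± 5.70 CPM (mutant), a log2 fold change of 0.23 (SE 0.11, edgeR adjusted p = 0.29).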

How the data were processed

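Whole-number read counts per gene were deposited by the authors for each library, without normalization; the submitters' processing notes list the tools HTSeq and DESeq2 without versions. Aligner, genome build, annotation, strand setting and the treatment of reads that match several genes were not given in the sources used here, so overlapping genes on opposite strands cannot be told apart. Gene identifiers were matched to symbols by a name table (44059 of 46911) and to positions and merged exon lengths in the WBcel235 annotation of Ensembl release 115. Exons of pck-2, tps-2 and gpd-2 overlap those of another gene by 9, 24 and 22 bp.

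Genes were kept by filterByExpr (nmr-2 kept in any case), scaled by TMM and tested in R 4.3.3 with edgeR 4.0.16 (robust glmQLFit, glmQLFTest, Benjamini-Hochberg adjustment over 13138 genes, threshold 0.05). The standard error (SE) is the absolute log2 fold change divided by the square root of F, and 95% intervals use the t distribution. The words rose and fell are kept for genes past the threshold. Alternatives were DESeq2 1.42.0, limma-voom (limma 3.58.1), RLE size factors, library totals, other low-count filters, a replicate block, each library left out, and both libraries numbered 2 left out. Whether replicate libraries are separate cultures is not labelled; p-values therefore reflect variation among libraries, possibly technical. Replicates differed beyond sampling noise (chi-square of 9.59 to 41.98 for each degree of freedom), so no library was a resequencing of another. This cannot tell separate cultures from separate preparations of the same RNA. A count of 3 equals 0.108 to 0.141 CPM, depending on the library.

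The 10 genes, the lists, the rule for named genes (all 10, nmr-2, in each list the genes that passed or else the gene with the smallest p, and 3 genes most like the member with the smallest p) and the alternatives were chosen with earlier results of these data known. Promoter and protein sequences were not used here. Figures were drawn with matplotlib 3.10.9.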

Additional observations from a re-analysis of the deposited data

How the results depend on the processing

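Of 140 values of the 10 enzyme genes over 14 alternatives, 134 kept their direction and their side of the threshold. The 5 that changed sign were tps-1 (-0.075) and gpd-3 (0.018) without both libraries numbered 2, gpd-3 with library totals alone (0.0036), and tps-2 on leaving out mutant replicate 1 or WT replicate 3, with a range of -0.031 to 0.090 when 1 library was left out; the cause was not tested. The number of the 10 that fell was 1 instead of 0 without the low-count filter (gpd-2, -0.48, edgeR adjusted p = 0.012), where edgeR gave 17093 of 19463 genes an infinite prior df; over the 14 alternatives the adjusted p of gpd-2 ran from 0.012 to 0.45. In the tricarboxylic acid cycle 1 gene fell without that filter (sdhd-1) and 1 without both libraries numbered 2 (idhg-1), and in the trehalose list 1 fell in the latter fit (tre-2). The sum of gpd-2 and gpd-3 ran from -0.37 to -0.05 and nmr-2 from -1.07 to -0.23, neither passing in any of the 14. Among all genes 235 rose and 49 fell, against 441 and 155 without the low-count filter, 345 and 185 without both libraries numbered 2, and 124 and 18 with the replicate block; 105 fell with DESeq2 and 16 with library totals alone, and leaving out 1 library gave 151 to 226 that rose and 30 to 52 that fell. The labels do not say whether the replicate numbers pair the libraries. Deviations from the group mean of same-numbered libraries correlated across genes at 0.00, -0.28 and -0.10. Those of differently numbered libraries correlated at -0.15 to 0.23. With 3 libraries per group these values cannot decide it. With the replicate block gpd-2 was at -0.47 (edgeR adjusted p = 0.45) and 0 of the 10 passed. Each enzyme gene had 179 or more counts in every library, and nmr-2 had 10 or fewer, so depth limits the latter.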

Other observations

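The genes whose log2 CPM followed that of gpd-2 most closely over the 6 libraries, among 6668 others with a mean of at least 10 CPM, were the collagen gene col-149 (Pearson's r = 0.9995), nuo-6 (0.998), a subunit gene of respiratory complex I, and T24H10.1 (0.998). The 6 libraries are those of both genotypes and share their scaling factors, and 1260 of the 6668 genes had an r above 0.9, so a close match is common here. Their log2 fold changes were -0.26 (SE 0.12), -0.38 (SE 0.13) and -0.34 (SE 0.13), and edgeR's adjusted p was 0.28, 0.16 and 0.21, so none passed.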
